A study of Mus musculus with 16 samples.

Results

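The measurements below are those of 38 genes of DNA replication and cell division in mouse adipose tissue, chosen by name as a set of proliferation and mitosis genes and found on the array through the RefSeq accession of each probe. All 38 were on the array, among 22907 genes that could be named, and each was read by the brightest of its probes. They were divided into 15 genes of DNA replication and S phase (Mcm2, Mcm3, Mcm4, Mcm5, Mcm6, Mcm7, Cdc6, Cdt1, Cdc45, Pcna, Rrm2, Tyms, Tk1, Ccne1 and Ccne2) and 23 genes of G2 and mitosis (Mki67, Top2a, Ccna2, Ccnb1, Ccnb2, Cdk1, Cdc20, Plk1, Aurka, Aurkb, Bub1, Bub1b, Birc5, Cenpa, Cenpe, Cenpf, Kif11, Kif20a, Kif23, Nusap1, Prc1, Tpx2 and Ube2c), called S-phase and mitotic members below. Brown adipose tissue (BAT) and gonadal white adipose tissue (gWAT) of adipose tissue-specific Pgam1 knockout mice (Adipo-Pgam1 KO, carrying Adipoq-Cre and Pgam1 flox/flox alleles) were compared with the same depots of littermate controls (WT), on 16 single-colour arrays with 4 arrays in each of the 4 groups. Pgam1 encodes phosphoglycerate mutase, an enzyme of glycolysis. All mice were male C57BL/6NCrSlc on normal chow, 16 weeks of age except for replicate 4 of both KO groups, which was 14 weeks of age. WT mice carried the floxed alleles without Cre, so the groups differ in the Cre transgene as well as in the deletion. Adipoq-Cre is active in adipocytes, and the RNA came from whole tissue, in which other cells keep the gene.

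A cell that prepares to divide first loads the MCM helicase onto its replication origins with the help of Cdc6 and Cdt1, and then fires them with Cdc45 while Pcna holds the polymerase on DNA and Rrm2, Tyms and Tk1 supply nucleotides. Cyclin A2, the B cyclins and Cdk1 then drive entry into mitosis, where Plk1 and the Aurora kinases, the spindle checkpoint, kinetochore proteins, kinesin motors and the anaphase-promoting complex separate the chromosomes. Mature adipocytes rarely divide, and dividing cells in adipose tissue are mostly known among progenitors, endothelial cells and macrophages. In bulk tissue, fewer cells of a type and less RNA per cell cannot be told apart.

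Many genes of late S phase and mitosis are known to carry CCAAT boxes and a cell cycle gene homology region (CHR) near the start of transcription, and many genes of DNA replication carry E2F sites. Promoter windows from 250 bases before to 50 bases after the start (RefSeq, GRCm38.p6) were given for 32 of the 38 members, and for Mcm4, Ccne2, Ccna2, Aurkb, Kif20a and Tpx2 none was given. They were searched on both strands for CCAAT, for the CHR letters TTTGAA and TTTAAA, and for the E2F letters TTTCCCGC, TTTGGCGC, TTTCGCGC and TTTGCCGC. Among 20 windows of 19 mitotic members, 90.0% held a CCAAT box, 90.0% a CHR, 85.0% both and 5.0% an E2F site. Among 14 windows of 13 S-phase members, the shares were 64.3%, 42.9%, 28.6% and 42.9%. Over all 32851 windows of this length in the table they were 37.4%, 27.6%, 10.73% and 2.26%. The matches describe letters in these windows and do not show that a factor binds there. TTTAAA reads the same on both strands, and in Mcm5 and Mcm6 a pair of E2F matches on opposite strands overlaps.

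The 200 bases before the start are given 5′ to 3′ for 7 members, 4 mitotic ones with CCAAT and CHR matches and 3 S-phase ones with E2F matches, with every match in capitals on either strand (a CCAAT box on the minus strand reads ATTGG). They lie at chr7:135716380-135716579 (minus strand), chr13:100786487-100786686 (minus strand), chr9:70421555-70421754 (minus strand) and chr10:69352913-69353112 (minus strand) for the mitotic members, and at chr8:75109309-75109508 (plus strand), chr1:128359706-128359905 (minus strand) and chr11:98907951-98908150 (plus strand) for the S-phase members.
Mki67: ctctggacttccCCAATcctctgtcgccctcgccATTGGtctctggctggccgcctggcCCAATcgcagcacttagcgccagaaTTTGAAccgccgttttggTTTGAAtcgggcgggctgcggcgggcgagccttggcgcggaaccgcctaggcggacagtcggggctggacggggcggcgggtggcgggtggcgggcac
Ccnb1: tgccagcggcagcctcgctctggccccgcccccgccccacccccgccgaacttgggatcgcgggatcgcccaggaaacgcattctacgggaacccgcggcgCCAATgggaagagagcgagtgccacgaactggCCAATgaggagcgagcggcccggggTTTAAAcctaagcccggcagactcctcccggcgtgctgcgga
Ccnb2: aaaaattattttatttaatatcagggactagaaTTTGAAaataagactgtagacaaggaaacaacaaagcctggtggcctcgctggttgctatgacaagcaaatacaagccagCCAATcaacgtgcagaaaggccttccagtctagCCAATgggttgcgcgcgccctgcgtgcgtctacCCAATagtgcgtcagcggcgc
Cdk1: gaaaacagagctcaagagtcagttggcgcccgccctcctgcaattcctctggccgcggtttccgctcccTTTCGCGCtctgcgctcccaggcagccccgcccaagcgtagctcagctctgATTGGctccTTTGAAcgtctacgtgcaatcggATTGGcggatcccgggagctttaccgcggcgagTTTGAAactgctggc
Mcm5: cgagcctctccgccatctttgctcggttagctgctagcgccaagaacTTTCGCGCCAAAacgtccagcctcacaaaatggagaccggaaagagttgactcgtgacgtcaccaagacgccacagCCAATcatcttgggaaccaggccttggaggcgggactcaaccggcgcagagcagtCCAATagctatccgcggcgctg
Mcm6: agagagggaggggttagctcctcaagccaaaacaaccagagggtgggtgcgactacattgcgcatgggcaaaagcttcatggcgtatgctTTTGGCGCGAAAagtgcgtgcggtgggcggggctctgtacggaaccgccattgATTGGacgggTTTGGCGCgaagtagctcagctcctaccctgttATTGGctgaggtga
Cdc6: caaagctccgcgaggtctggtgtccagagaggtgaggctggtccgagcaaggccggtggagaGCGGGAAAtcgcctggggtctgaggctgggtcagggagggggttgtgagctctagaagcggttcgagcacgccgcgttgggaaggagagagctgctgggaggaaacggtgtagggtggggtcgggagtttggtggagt
The CHR of Ccnb1 begins 42 bases before the start, after CCAAT boxes at 99 and 67 bases, while Cdk1 holds CCAAT boxes at 80 and 48 bases, CHR matches at 71 and 15 bases and an E2F match at 131 bases. The stretch of Cdc6 held neither a CCAAT box nor a CHR, and its only match was an E2F site at 138 bases. It lies wholly inside the annotated gene (chr11:98907709-98923942), before an internal start. It therefore does not describe the promoter at the outer start of Cdc6. The stretches of Mki67 and Mcm5 also reach into the annotated genes, whose outer ends are at 135716450 and 75109468.

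Pgam1 itself was examined first. Its log2 signal (the log2 of the processed signal minus that of the array's 75th percentile, the scale of all levels below) was 7.94, 7.93, 8.07 and 7.82 in WT BAT and 6.20, 6.12, 6.03 and 6.43 in KO BAT, a change of -1.74 (SE 0.11, adjusted p = 1.11e-05). In gWAT it went the other way, with 5.07, 5.15, 5.67 and 5.56 in WT and 6.50, 6.42, 6.38 and 5.95 in the arrays labelled KO, a change of 0.95 (SE 0.19, adjusted p = 0.014). The gWAT arrays labelled KO are therefore named so throughout, and every gWAT direction depends on the labels. Whether the probe lies in the deleted exons is not given in the sources used here. The arrays lay on 3 slides. Replicates 1 to 3 of WT BAT were on the first, replicate 4 of WT BAT, the 4 KO BAT arrays and replicates 1 to 3 of WT gWAT were on the second, and replicate 4 of WT gWAT and the 4 gWAT arrays labelled KO were on the third. Slide and genotype therefore overlap in large part, and a fit with the slide as a block compares 4 KO arrays with 1 WT array within each tissue. Up to 62.2% of the probes on an array were well above background, and no spot was saturated. The 75th percentile itself was 401 to 451 intensity units in WT BAT and 650 to 917 in KO BAT. Scaling the arrays by their spike-in controls in place of the 75th percentile moved the median change of all genes from -0.08 to 0.46 in BAT and from 0.05 to 0.49 in gWAT, and with it 50.8% of all genes tested were called higher in BAT and 34.3% in gWAT.

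In BAT, nearly the whole set was higher in KO mice. Of 37 members tested, 33 rose and 1, Cdc45, fell, whereas 27.5% of the 14277 genes tested rose and 34.0% fell. Some of the 37 entered the test only through their KO arrays, which favours a rise in this and the counts below. Of the 24 members well above background on all 8 arrays 21 rose and 1 fell, and 24.1% of 12888 such genes rose. The mitotic members moved further than the S-phase members. Their median log2 change was 2.92 (7.54-fold) over 23 tested, 22 of which rose, against 1.37 (2.59-fold) over 14 S-phase members tested, of which 11 rose. The median of all genes tested was -0.08. Over the members well above background on all 8 arrays the medians were 2.53 (mitotic) and 1.07 (S-phase). With normexp background correction, which adds an offset of 50 intensity units, the mitotic median was 1.64 (75th percentile) or 1.77 (quantile normalization) and the S-phase median 1.04 or 1.08. A rise of at least 2-fold was called for 30 members, and 14.5% of all genes tested rose at least 2-fold. The values of the KO and WT arrays did not overlap, with KO higher, for 32 members, as for 25.1% of all genes tested. With the slide as a block, a fit that rests on 1 WT array, the medians were 3.34 for mitotic and 1.64 for S-phase members.

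**Figure D1:**
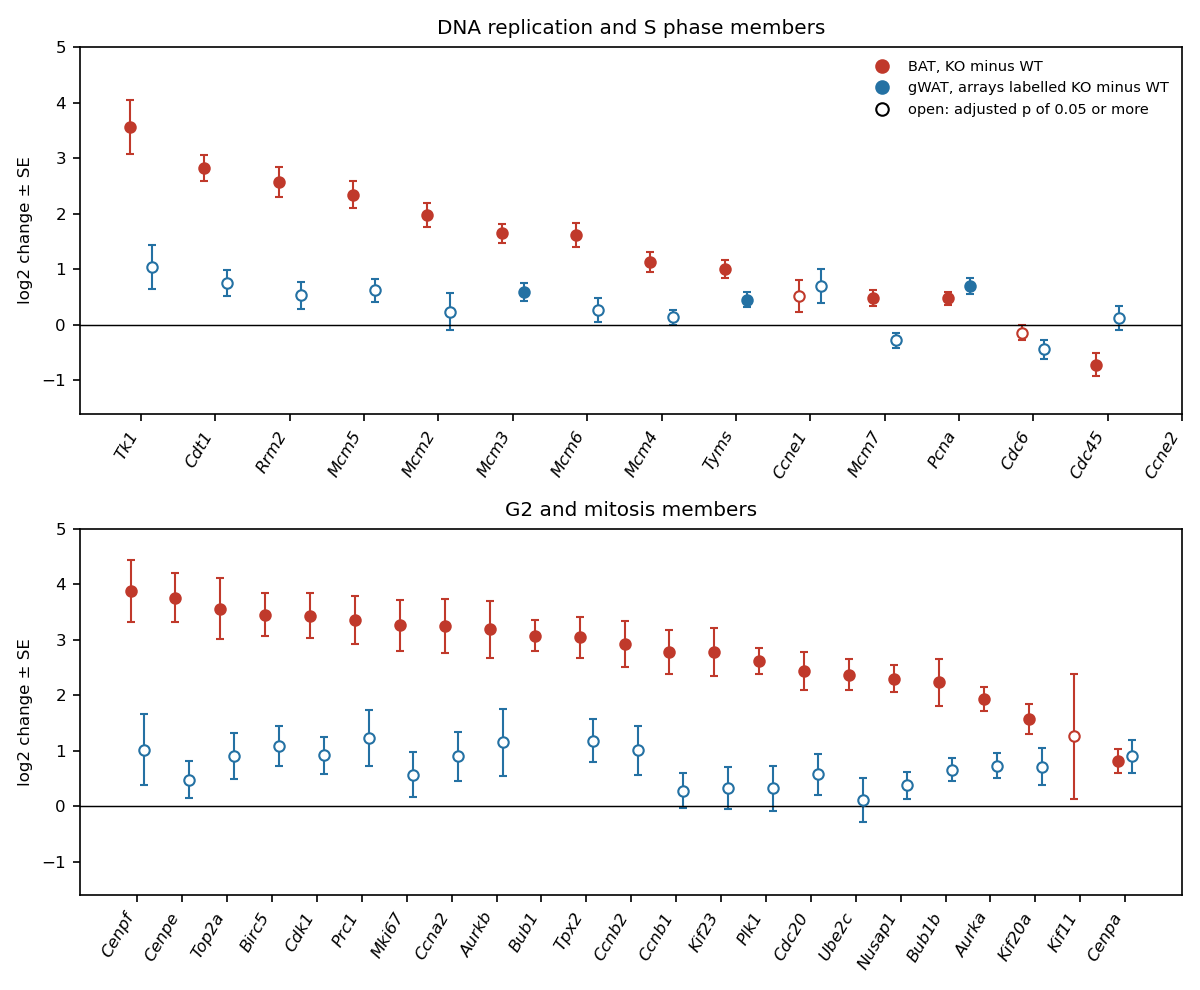
Log2 change of each member, KO minus WT, in BAT (red) and gWAT (blue, by the array labels), with the SE of the limma fit as bars (4 arrays a group), S-phase members above and mitotic members below, ordered by the change in BAT. Filled points passed an adjusted p of 0.05. In BAT 22 of 23 mitotic members are filled and all lie above 0, while in gWAT 3 S-phase points (Pcna, Mcm3 and Tyms) are filled. The BAT points of Cdk1 and Bub1 are set against WT arrays on which the probe was not well above background.

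Among the genes that load and fire replication origins, Cdt1, which recruits the MCM helicase, had the largest change. Its log2 signal was -1.54, -2.39, -1.43 and -2.12 in WT BAT and 0.68, 1.11, 1.23 and 0.76 in KO BAT, a rise of 2.82 (SE 0.23, adjusted p = 2.64e-05). Every KO array lay above every WT array. Mcm2, a helicase subunit, was at -2.97, -3.55, -2.73 and -3.39 in WT BAT, where 3 of 4 arrays were well above background, and at -1.14, -0.92, -1.06 and -1.62 in KO BAT. The groups did not overlap, and the rise was 1.98 (SE 0.22, adjusted p = 9.35e-05). The other helicase subunits Mcm3, Mcm4, Mcm5, Mcm6 and Mcm7 rose as well, by between 0.48 for Mcm7 and 2.34 for Mcm5. The rise of Mcm7 did not pass without WT replicate 1 (adjusted p = 0.0544) or KO replicate 2 (adjusted p = 0.0543), or with the slide as a block (0.45, adjusted p = 0.168). Cdc6 is the loader that acts beside Cdt1. It stayed near its control level with -1.75, -2.14, -1.70 and -1.73 in WT and -2.19, -1.95, -1.73 and -2.004 in KO BAT. The difference was -0.14 (SE 0.14, adjusted p = 0.415), it was 0.41 (adjusted p = 0.0613) with spike-in scaling, and a second, dimmer probe of Cdc6 differed by 0.50. Cdc45, the helicase cofactor needed for origin firing, was the exception to the direction of the set. It read -1.98, -1.78, -1.31 and -1.12 in WT BAT and -2.08, -2.53, -2.36 and -2.09 in KO BAT, so that the groups did not overlap, with a change of -0.72 (SE 0.21, adjusted p = 0.0144) that was -0.17 (adjusted p = 0.484) with spike-in scaling. The other probe of Cdc45 differed by -0.68.

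The enzymes of nucleotide supply rose in BAT. Tk1, the thymidine kinase of the salvage pathway, had the largest change of the S-phase members, from -3.51, -3.35, -1.71 and -4.28 in WT, where 3 of 4 arrays were well above background, to -0.14, 0.71, 0.61 and 0.19 in KO (3.56, SE 0.49, adjusted p = 0.000299). Rrm2, the small subunit of ribonucleotide reductase, went from -1.43, -1.79, -0.66 and -2.01 to 0.92, 1.16, 0.97 and 1.36 (2.57, SE 0.27, adjusted p = 7.99e-05). Neither gene overlapped between the groups, and in both WT replicate 3 was the highest of its group. Tyms, the thymidylate synthase, rose 2.01-fold (log2 change 1.005, SE 0.16, adjusted p = 0.000615). Pcna, the sliding clamp of the polymerases, read 3.55, 3.503, 3.84 and 3.79 in WT and 4.03, 4.24, 4.20 and 4.12 in KO BAT. All 4 KO arrays were above all WT arrays, yet the step was small, 1.39-fold (0.48, SE 0.11, adjusted p = 0.00521), and with the slide as a block it was 0.36 (adjusted p = 0.119). The E cyclins, which start S phase with Cdk2, were not called. Ccne1 differed by 0.51 (SE 0.29, adjusted p = 0.15), by 0.74 (adjusted p = 0.0308) without WT replicate 4 and by -0.17 (adjusted p = 0.715) with the slide as a block. Ccne2 was well above background on 1 of 4 WT arrays and on none of the KO arrays, and was not tested.

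Mki67 and Top2a, the Ki-67 antigen and the topoisomerase that untangles sister chromatids, are commonly read as marks of cycling cells. Mki67 read -1.13, -2.39, -0.07 and -2.03 in WT BAT and 1.41, 2.16, 2.002 and 1.84 in KO BAT, a 9.58-fold rise (log2 change 3.26, SE 0.46, adjusted p = 0.000348). Top2a read -2.44, -4.07, -1.54 and -4.08 in WT, with 3 of 4 arrays well above background, and 0.04, 0.87, 0.60 and 0.61 in KO (3.56, SE 0.55, adjusted p = 0.000587). For both, every KO array lay above every WT array, and the WT arrays were the more scattered, with an SD of 1.03 for Mki67 and 1.26 for Top2a against 0.32 and 0.35.

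The cyclins and the kinase of mitotic entry showed the same pattern. Ccnb1 encodes cyclin B1, and its log2 signal was -2.95, -4.39, -2.31 and -2.97 in WT BAT (3 of 4 arrays well above background) and -0.80, -0.09, -0.39 and -0.24 in KO BAT. The rise was 2.78 (SE 0.40, adjusted p = 0.000371), with no overlap. Cdk1, the kinase it activates, was not well above background on any WT array, where it read -4.66, -5.84, -3.79 and -4.78, and was well above on all KO arrays at -1.90, -1.30, -1.15 and -0.98. Its level on each WT array was set to the dimmest signal well above background there, or to its own signal where that was higher. Against that level Cdk1 was 6.13-fold higher in KO BAT (measured means -4.77 and -1.33, adjusted p = 0.000121). This is an estimate and not a strict lower bound, because a probe can exceed the dimmest such signal without being well above background. Ccna2 (3.24, SE 0.49, adjusted p = 0.000506) and Ccnb2 (2.92, SE 0.41, adjusted p = 0.00037) rose on probes that were well above background on all 8 arrays.

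The kinases and the checkpoint followed. Plk1 rose by 2.62 (SE 0.23, adjusted p = 3.18e-05) and Aurka by 1.93 (SE 0.22, adjusted p = 0.000105), both measured on all 8 arrays. Aurkb, the kinase of the chromosomal passenger complex, rose by 3.19 from a level well above background on 1 of 4 WT arrays (by 1.101 with normexp and the 75th percentile), and Birc5, the survivin subunit of that complex, by 3.45 (SE 0.38, adjusted p = 9.73e-05) from a level measured on all. Bub1, a checkpoint kinase at the kinetochore, was not well above background on any WT array. Against a WT level set as for Cdk1 it was 2.53-fold higher in KO BAT (measured means -5.70 and -2.62, adjusted p = 3.29e-05). Bub1b rose by 2.24 (SE 0.43, adjusted p = 0.00182), and by 1.87 (adjusted p = 0.0595) with the slide as a block. Cdc20 and Ube2c, the activator and the ubiquitin-conjugating enzyme of the anaphase-promoting complex, rose 5.41-fold and 5.17-fold.

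Kinetochore genes rose as well, from WT levels that were in part too dim to measure. Cenpf read -5.13, -5.79, -3.25 and -5.98 in WT BAT, where only replicate 3 was well above background, and -1.65, -0.71, -1.13 and -1.15 in KO BAT (3.88, SE 0.55, adjusted p = 0.000365), and with normexp and the 75th percentile its change was 1.39. Cenpe, a kinetochore motor, read -3.65, -4.08, -1.92 and -3.81 in WT, with 2 of 4 arrays well above background, and -0.02, 0.76, 0.55 and 0.25 in KO (3.75, SE 0.44, adjusted p = 0.000128), a change of 2.40 with that correction. Both were without overlap, and in both WT replicate 3 was the highest of its group. Cenpa, the histone variant that marks the centromere, had the smallest rise among the mitotic members called, at 0.82 (SE 0.22, adjusted p = 0.00977). Its groups overlapped, since WT replicate 3 at 0.17 was above KO replicate 3 at 0.15, and with the slide as a block the difference was 0.93 (adjusted p = 0.0661).

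Of the spindle proteins, Prc1 rose 10.2-fold, Tpx2 8.25-fold, Kif23 6.84-fold, Nusap1 4.91-fold and Kif20a 2.98-fold. Tpx2 and Kif23 were well above background on 1 of 4 WT arrays each, and with normexp and the 75th percentile their log2 changes were 1.18 and 0.71. Kif11, the motor that pushes the spindle poles apart, was the only mitotic member not called (1.26, SE 1.12, adjusted p = 0.353). WT replicate 1 read -0.66 and the other WT arrays -5.91, -4.80 and -6.56, against -3.77, -2.99, -3.07 and -3.06 in KO. Without that array the difference was 2.54 (SE 0.40, adjusted p = 0.00111), and with normexp background correction of all arrays it was -0.35 (adjusted p = 0.505).

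**Figure D2:**
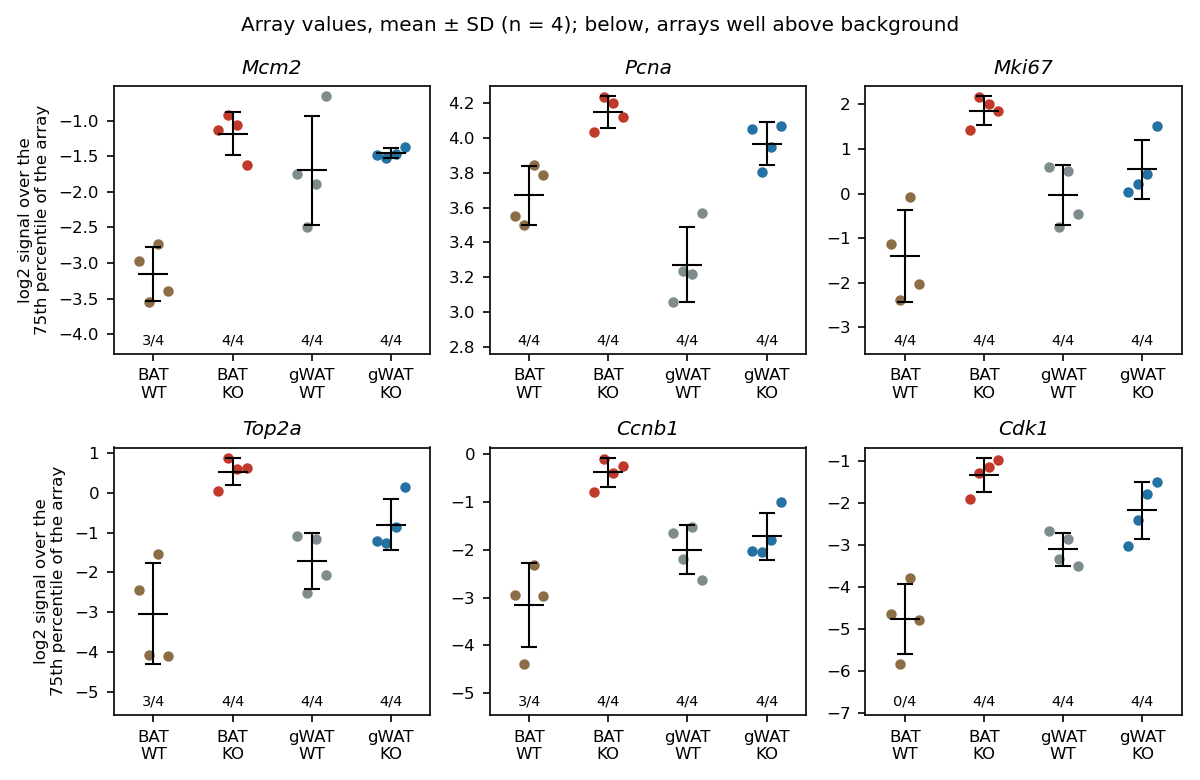
Log2 signal over the array's 75th percentile on each array for 6 members, with the mean and SD of the 4 arrays of a group as black lines and, at the foot of each panel, the number of arrays on which the probe was well above background. In each panel the KO BAT points lie above the WT BAT points, and Cdk1 was well above background on 0 of 4 WT BAT arrays.

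Detection differed between the BAT groups too. On the WT BAT arrays 29, 25, 34 and 30 of the 38 members were well above background, and on each of the KO BAT arrays 37 were. Of all probes, 52.1%, 50.7%, 50.9% and 55.7% were well above background on the WT BAT arrays. On the KO BAT arrays 59.8%, 58.5%, 60.6% and 52.2% were, so detection over all probes was also higher on KO replicates 1 to 3. The gap lay in the mitotic genes, of which 15, 12, 20 and 16 were well above background in WT BAT and all 23 in KO BAT, while S-phase members went from 13 or 14 to 14. A gene that passed only through its KO arrays was selected for a high KO level, although Kif11, which passed in this way, was not called. Restricted to the 24 members well above background on all 8 BAT arrays, 12 of 12 mitotic members rose (median 2.53) and 9 of 12 S-phase members rose while 1 fell (median 1.07), beside 24.1% of 12888 genes that rose and a median of -0.13.

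**Figure D3:**
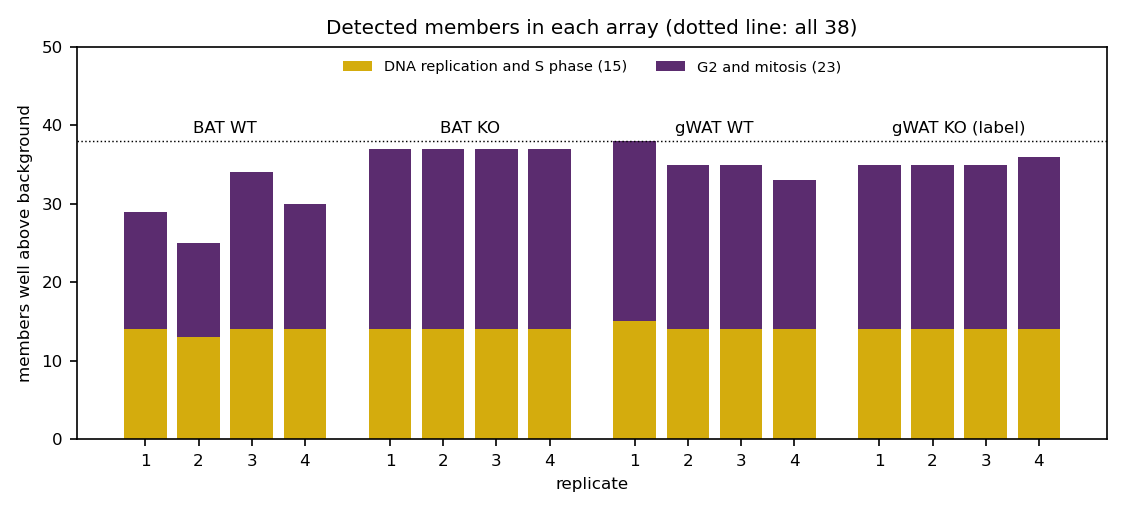
Number of members well above background on each of the 16 arrays, S-phase members in yellow and mitotic members in purple. The bars of WT BAT stand between 25 and 34, those of KO BAT at 37, those of WT gWAT between 33 and 38 and those of the gWAT arrays labelled KO at 35 or 36.

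In gWAT the changes were smaller and few passed the test. Of 35 members tested, 3 were higher in the arrays labelled KO and none was lower, beside 9.94% of 14146 genes higher and 7.88% lower. All 3 were S-phase members, and 0 of 21 mitotic members were called by limma or by the methods' t-test after adjustment. At an unadjusted p under 0.05 limma passed 8 mitotic and 7 S-phase members that were higher and 1 S-phase member, Cdc6, that was lower, beside 19.6% of all genes tested that were higher and 15.2% that were lower. The 21 mitotic differences were all above 0, from 0.11 for Ube2c to 1.23 for Prc1. Of all 14146 genes tested, 7670 had a difference above 0. The mitotic median was 0.73 against 0.05 over all genes tested and 0.49 over 14 S-phase members. The mitotic members moved together from array to array, so these signs are not independent of each other. Most were highest of their group on replicate 4 of the arrays labelled KO, the younger mouse. Without that array Plk1 (-0.046) and Ube2c (-0.18) were below 0, and the mitotic median was 0.55. With spike-in scaling 12 members were called higher, beside 34.3% of all genes tested. With the other scalings and background corrections 6 to 9 were, beside 6.96% to 11.3%, and without the filter on dim probes 1 was, beside 2.68%. With the slide as a block, a fit that rests on 1 WT array, the medians were 1.102 for mitotic and 0.37 for S-phase members.

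Pcna was at 3.06, 3.24, 3.22 and 3.57 in WT gWAT and at 4.05, 3.81, 3.94 and 4.07 in the arrays labelled KO, without overlap (0.70, SE 0.14, adjusted p = 0.0152). Mcm3 read 0.78, 0.38, 0.53 and 0.90 in WT and 1.29, 1.05, 1.08 and 1.51 in the arrays labelled KO (0.59, SE 0.16, adjusted p = 0.0413). Tyms read 0.51, 0.40, 0.67 and 0.40, and 1.07, 0.95, 1.07 and 0.72 (0.45, SE 0.13, adjusted p = 0.0451). The arrays did not overlap for any of these genes, as for 13.3% of all genes tested in the same direction, yet the calls were near the threshold. The count of 3 fell to 1 without WT replicate 2, KO replicate 2 or KO replicate 3, and of the 8 fits that each left out 1 array 7 lost Mcm3 (adjusted p between 0.0563 and 0.109) and 7 lost Tyms (adjusted p between 0.0573 and 0.122).

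The cycling marks overlapped between the gWAT groups. Mki67 read 0.60, -0.76, 0.50 and -0.45 in WT and 0.03, 0.21, 0.43 and 1.504 in the arrays labelled KO (0.57, SE 0.40, adjusted p = 0.35). Top2a read -1.08, -2.52, -1.17 and -2.06, and -1.21, -1.26, -0.86 and 0.14 (0.91, SE 0.41, adjusted p = 0.149). In both genes replicate 4 of the arrays labelled KO, the younger mouse, was the highest of its group. Ccnb1 read -1.65, -2.20, -1.52 and -2.63 in WT and -2.02, -2.05, -1.79 and -1.002 in the arrays labelled KO (0.28, SE 0.31, adjusted p = 0.557). Cdk1 read -2.68, -3.35, -2.87 and -3.51, and -3.02, -2.40, -1.80 and -1.51 (0.92, SE 0.34, adjusted p = 0.0896). Mcm2 read -1.75, -2.50, -1.89 and -0.66, and -1.48, -1.53, -1.47 and -1.36, and its difference of 0.24 (SE 0.33, adjusted p = 0.652) changed sign to -0.03 without WT replicate 2 and to -0.80 with the slide as a block. None of these genes separated the groups. Cdc6 was lower on every array labelled KO than on every WT array, with a difference that was not called (-0.44, SE 0.17, adjusted p = 0.103) and that was 0.0033 with spike-in scaling. Ccne2, Bub1 and Kif11 were well above background on no more than 1 array of either group and were not tested.

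Whether the genotype change differed between the depots was tested by the interaction of tissue and genotype over all 16 arrays. Of 37 members tested, 29 had the more positive change in BAT and 1, Cdc45, in gWAT, beside 20.9% and 27.4% of 14817 genes. The 29 include Cdk1 and Bub1, which were not well above background on any WT BAT array, and Cenpe, which was well above background on 2 of 4. The difference, gWAT change minus BAT change, was -3.27 for Cenpe (SE 0.60, adjusted p = 0.000531), -2.69 for Mki67 (SE 0.66, adjusted p = 0.00404), -2.65 for Top2a (SE 0.74, adjusted p = 0.00886) and -1.74 for Mcm2 (SE 0.42, adjusted p = 0.00385). Pcna did not pass (0.22, SE 0.17, adjusted p = 0.31), nor did Cdc6, Ccne1, Aurkb, Cenpa, Kif11 or Kif20a. With the slide as a block the genotype change of each depot rests on 1 WT array, so that fit cannot decide which members differ. The call of Cdc45 (0.84, SE 0.32, adjusted p = 0.0396) was lost when WT BAT replicate 3 or 4, KO BAT replicate 2 or 3, WT gWAT replicate 1, 2 or 4, or labelled KO gWAT replicate 1 or 3 was left out.

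Control mice already differed between depots. Of 33 members tested in WT mice, 18 were higher in gWAT and 4 lower, beside 29.2% and 35.4% of 14301 genes. The arrays of the depots did not overlap, with gWAT higher, for 11 members (27.2% of all genes tested). Cenpe was 4.56-fold higher in WT gWAT (2.19, SE 0.48, adjusted p = 0.00375), Ube2c 3.04-fold (adjusted p = 0.00625) and Mcm2 2.75-fold (adjusted p = 0.00762). Against the WT BAT level set for it above, Cdk1 was 1.80-fold higher (measured means -4.77 in BAT and -3.10 in gWAT, adjusted p = 0.00591). Lower in gWAT were Cenpa (-1.55, SE 0.26, adjusted p = 0.000852), Cdc45 (-0.82), Tyms (-0.42) and Pcna (-0.40). The count of 18 was 10 or 11 without WT BAT replicate 1, 2 or 4 or WT gWAT replicate 1 or 3. The count of 4 was 2 without WT BAT replicate 3 or WT gWAT replicate 1 or 2. With the slide as a block the comparison of depots rests on 1 WT BAT array, so that fit cannot decide these counts. This comparison uses the same WT arrays as those above, so its values are not independent of them.

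**Figure D4:**
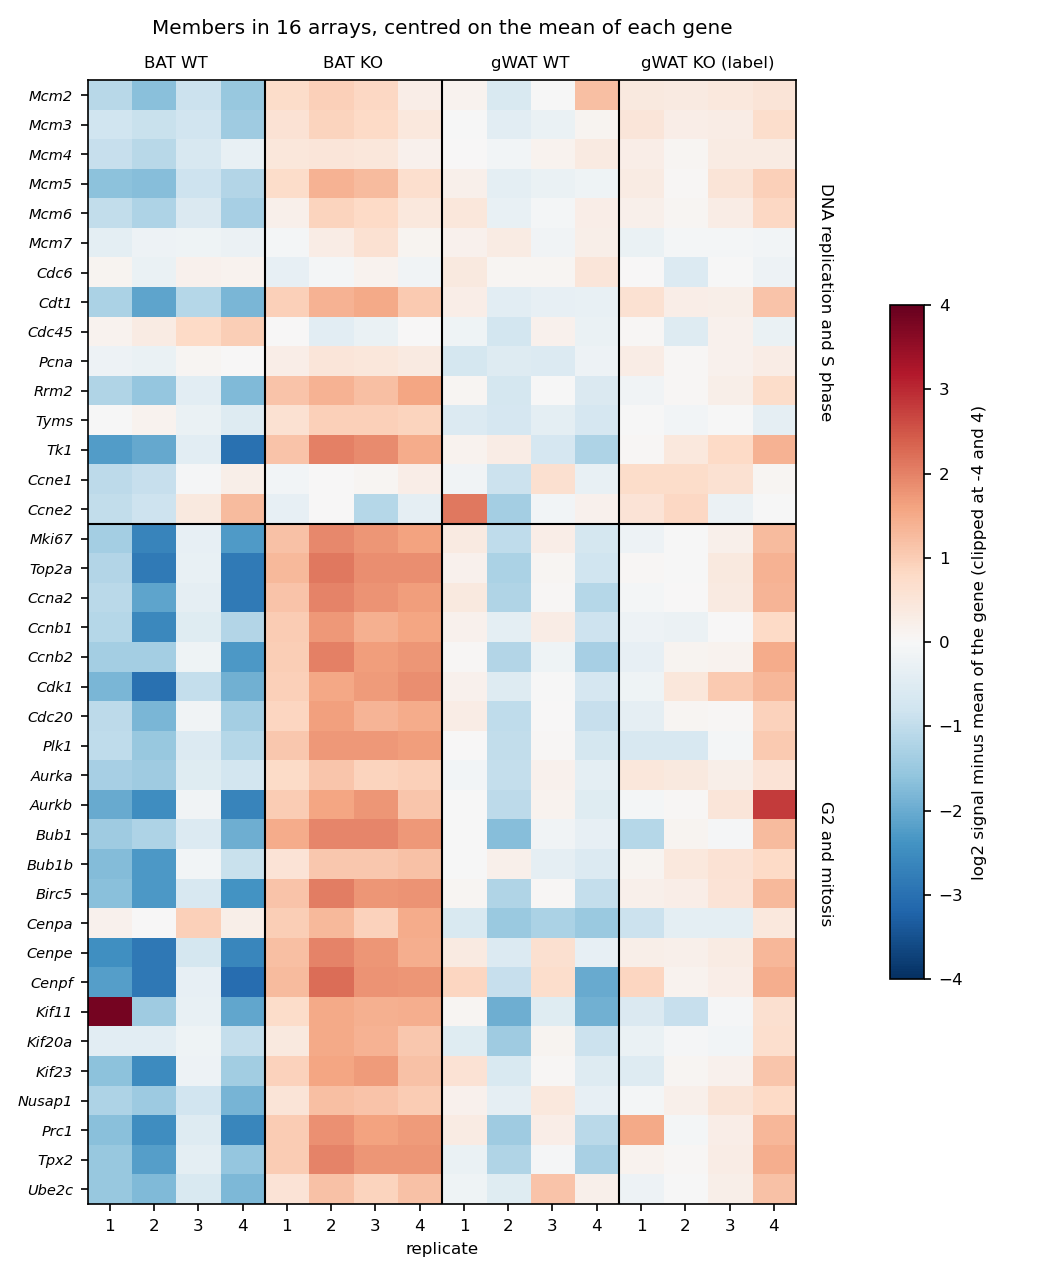
Log2 signal of the 38 members on the 16 arrays, each gene centred on its mean over all arrays (red above, blue below, clipped at -4 and 4), with the S-phase members above the black line and the mitotic members below it. The KO BAT columns are red through the mitotic rows, replicate 3 stands out among the WT BAT columns and replicate 4 among the gWAT columns labelled KO, and Kif11 on WT BAT replicate 1 is an isolated dark cell.

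Within groups the members moved together from array to array. In WT BAT replicate 3 had the highest value of its group for 22 of 23 mitotic and 10 of 15 S-phase members, and its mitotic median was -1.91 against -3.75 to -2.46 on the other 3 arrays. In KO BAT replicate 1 was the lowest for 22 of 23 mitotic and 9 of 15 S-phase members. Among the gWAT arrays labelled KO, replicate 4 was the highest for 22 of 23 mitotic members, with a mitotic median of -0.28 against -1.96, -1.77 and -1.39. Without this array the median difference of the mitotic members in gWAT was 0.55 and 2 members were called. Without WT BAT replicate 3 the median rise of the mitotic members in BAT was 3.29 and 33 members rose.

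The summed signal of 16 macrophage markers (Adgre1, Cd68, Csf1r, Lyz2 and others, all well above background on all 16 arrays) differed between arrays too. In units of each array's 75th percentile it was 38.6, 40.6, 58.4 and 43.2 in WT BAT and 213, 233, 235 and 166 in KO BAT, so the groups did not overlap. In BAT 13 of the 16 markers rose and none fell, beside 27.5% and 34.0% of all genes tested, with a median change of 2.80. In gWAT the sum was 135, 110, 146 and 162 in WT and 121, 161, 207 and 346 in the arrays labelled KO. There 3 of the 16 markers were higher, beside 9.94% of all genes tested. In WT BAT (replicate 3) and among the gWAT arrays labelled KO (replicate 4) the array with the highest sum was also that on which most mitotic members were highest. In KO BAT and WT gWAT it was not. In KO BAT the sum was highest on replicate 3 and lowest on replicate 4, while 17 of 23 mitotic members were highest on replicate 2 and 22 lowest on replicate 1. In WT gWAT the sum was highest on replicate 4, on which 0 of 23 mitotic members were highest, while 13 were highest on replicate 1. The part of macrophages or of any other cell type in the changes of the members was not tested.

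**Figure D5:**
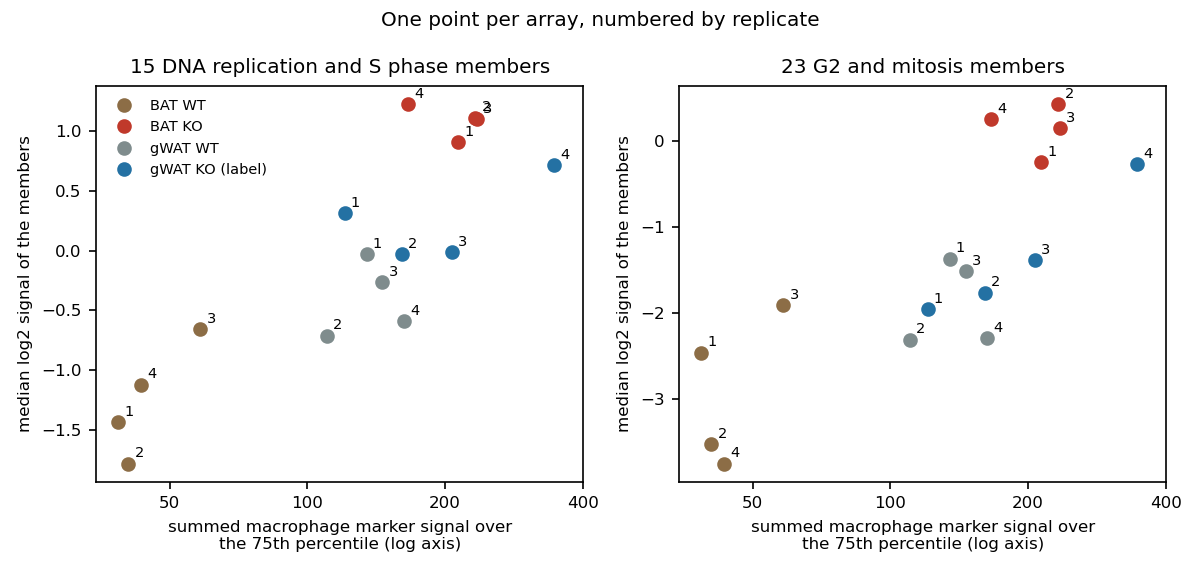
Median log2 signal of the S-phase members (left) and of the mitotic members (right) on each array against the summed signal of 16 macrophage markers on the same array (log axis, units of the array's 75th percentile), numbered by replicate. WT BAT arrays lie at sums of 38.6 to 58.4 and KO BAT arrays at 166 to 235, and among the gWAT arrays labelled KO replicate 4 lies apart at 346.

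Other genes of the same processes were read from lists. Over all genes tested in BAT 27.5% rose and 34.0% fell, and each count here is to be set beside these shares. Of 43 other mitosis genes tested in BAT, 38 rose and 1, Cenpk, fell, with a median change of 2.14. Ckap2, a spindle protein, had the largest fitted change (3.92, SE 0.63, adjusted p = 0.000707) from a level well above background on 1 of 4 WT arrays. Of 34 other DNA replication genes, 22 rose and 2 fell, with a median of 0.67, from Mcm10 (2.51, SE 0.29, adjusted p = 0.000127) to Gmnn, the inhibitor of Cdt1 (-0.75, SE 0.26, adjusted p = 0.0307). Regulators of G1 had no common direction, with 12 of 27 higher and 7 lower in KO BAT. Ccnd2, a D-type cyclin, rose 6.04-fold (2.60, SE 0.14, adjusted p = 5.89e-06) while Cdc25a, the phosphatase that activates Cdk2, fell (-1.33, SE 0.15, adjusted p = 0.000124). Of 7 genes listed as inhibitors of cyclin-dependent kinases 2 rose and 2 fell, led by Cdkn3, a phosphatase of Cdk1 and Cdk2 that is itself expressed in dividing cells (2.40, SE 0.20, adjusted p = 2.56e-05), and Cdkn2c, an inhibitor of Cdk4 and Cdk6 (-2.36, SE 0.13, adjusted p = 5.49e-06).

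In gWAT 6 of 37 other mitosis genes and 8 of 34 other DNA replication genes were higher in the arrays labelled KO, and none was lower. Over all 14146 genes tested 9.94% were higher and 7.88% lower. Spc24, a kinetochore subunit, led the first (1.48, SE 0.19, adjusted p = 0.0034) and Rfc4, of the clamp loader, the second (1.33, SE 0.17, adjusted p = 0.00343). Cdkn1a, which encodes the inhibitor p21, was 4.81-fold higher (2.27, SE 0.28, adjusted p = 0.00291) and Cdkn1c lower (-0.89, SE 0.18, adjusted p = 0.0156). Of 25 G1 regulators only Tfdp2 was called, and it was lower (-0.60, SE 0.16, adjusted p = 0.0342).

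Markers of other cells moved in BAT as well, where 27.5% of all genes tested rose and 34.0% fell. Of 8 fibroblast and progenitor markers 7 rose, led by Col1a1 (1.87, SE 0.32, adjusted p = 0.000934). Of 7 T cell and NK cell markers 5 rose, among them Klrb1c (adjusted p = 0.000311), whose WT level was not well above background on any array. The summed T cell and NK cell signal was 4.04, 3.73, 3.88 and 6.42 in WT BAT and 6.86, 4.55, 4.64 and 5.75 in KO BAT, so the groups overlapped. Gpnmb led the macrophage markers in BAT (4.83, SE 0.38, adjusted p = 2.07e-05) and in gWAT (3.15, SE 0.66, adjusted p = 0.0168). None of 6 endothelial, 3 B cell or 2 neutrophil markers was called in either depot by limma, and at an unadjusted p under 0.05 the only ones to pass were 2 B cell markers that were lower in gWAT. All 8 adipocyte markers fell in BAT, led by Cidec (-2.40, SE 0.13, adjusted p = 5.49e-06), and so did 7 of 8 brown adipocyte markers, led by Dio2 (-2.42, SE 0.36, adjusted p = 0.000499). In gWAT 9.94% of all genes tested were higher and 7.88% lower. There 1 of 8 fibroblast and progenitor markers, Dpt (-1.04), and 1 of 8 adipocyte markers, Adipoq (-0.89), were lower. Of 6 brown adipocyte markers 4 were higher, led by Elovl3 (4.34, SE 0.997, adjusted p = 0.0219). Both depots held all 8 adipocyte markers well above background on every array, and all 8 brown adipocyte markers were so on the BAT arrays. In BAT 1 of 3 skeletal muscle markers, Acta1, was higher (3.11, SE 1.05, adjusted p = 0.0292). The summed signal of 8 muscle markers was 0.42 to 1.1 in WT BAT and 84.3, 0.90, 14.6 and 1.47 in KO BAT, so that the higher sums were those of replicates 1 and 3. Replicate 1 was also the KO BAT array on which most mitotic members were lowest, and without it 33 members rose and the mitotic median was 3.12. In BAT 3 of 4 testicular germ cell markers were lower, led by Tnp2 (-1.70, SE 0.23, adjusted p = 0.000252), while no group had an epididymal marker well above background on each of its 4 arrays. In WT gWAT replicate 1 stood apart, with a summed germ cell signal of 13.5 against 0.85 to 1.096 on the other 3 arrays and a summed epididymal signal of 2.33 against 0.076 to 0.30, and the arrays labelled KO reached 1.12 and 2.27. On that array all 38 members were well above background and 13 of 23 mitotic members were the highest of their group. The array also had more of all probes well above background, 62.2% against 53.3% to 55.5% on the other WT gWAT arrays. Without it 3 members were called higher in gWAT, with a mitotic median of 0.81, and 11 in the comparison of WT depots. The part of muscle, germ or epididymal cells in these values was not tested.

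The probes of a member mostly shared their sign. For 16 members with 2 or 3 probes, 18 dimmer probes were available, and 14 of the 15 measured in BAT and 12 of the 13 measured in gWAT had the sign of the brightest. Measured means well above background on every array of at least 1 of the groups. Many of the BAT probes passed only through their KO arrays, which favours a positive sign. Those of Mcm3, Cdc45, Tyms and Cdc20 were well above background on every WT and KO BAT array, and all had the sign of the brightest. The exceptions were the Cdc6 probe given above and, in gWAT, a probe of Ccna2 that differed by -0.07 where the brightest differed by 0.90. The dimmer probe of Tk1 differed by 4.18 in BAT and that of Top2a by 3.83. In WT BAT the first was well above background on 2 arrays and the second on 0.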

How the data were processed

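Total RNA of BAT and gWAT was labelled with Cy3 and hybridised to Agilent SurePrint G3 Mouse GE 8 x 60K arrays, and the authors deposited the output of Agilent Feature Extraction 10.7.1.1 (per the labels), with a spot intensity that is already background-subtracted. Their normalized table was made in GeneSpring. Its values are on a linear intensity scale, and their log2 differed from the log2 intensity used here by a median of at most 0.0065 on any array, so it served as an alternative.

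From the deposited intensity values, log2(gProcessedSignal) was taken relative to the 75th percentile of each array (59305 spots, controls left out), irregular spots were dropped, spots of a probe averaged, and probes named through RefSeq accessions (GRCm38.p6), which named 32989 of 35886 accession probes (91.9%). The brightest probe stood for a gene, and a gene entered a test where at least 1 of the groups compared had it well above background on each of 4 arrays. limma 3.58.1 (lmFit and eBayes, R 4.3.3) was run on the 8 arrays of a tissue, on the 8 WT arrays for the depots and on all 16 for the interaction, with Benjamini-Hochberg adjustment over all genes tested and an adjusted p under 0.05 as the threshold. All tests were two-sided. A call by this rule is written as rose, fell, higher or lower. The fit was tested on simulated data. Arrays give no read depth, and their number limits the precision, as do dim probes and the overlap of slide and genotype. The labels do not say whether both depots came from the same mice.

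Values by array are given for Mki67, Top2a, Ccnb1, Cdk1, Mcm2 and Pcna, for the 3 S-phase and 3 mitotic members with the largest called change in each tissue, and for a few members added after their values were seen (Cdc6, Cdc45 and Kif11). Of every other list the largest called rise and fall in each tissue is named. The members, lists and tests were chosen with earlier results of these data known. Alternatives were quantile normalization, median centring, spike-in scaling (7 controls above 200 intensity units), normexp background correction (offset 50, on the median spot signal, because the files hold no mean signal), the deposited normalized table, no or a stricter filter, the mean of all probes, the methods' t-test, the slide or the replicate number as a block, and each array left out in turn.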

Additional observations from a re-analysis of the deposited data

Results flagged for a closer look

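An array stood apart from the other 3 arrays of its group (Dixon's test) in 8 of 160 sets of 4 values, the number that chance gives at about 1 in 20 for independent sets. The members moved together from array to array, so the sets are not independent and the equal number does not show that the flags are chance. In KO BAT the flagged arrays were replicate 4 for Mcm4 at a log2 signal of 1.51 and replicate 1 for Tyms at 1.68, Plk1 at -0.24, Bub1b at -2.30 and Kif11 at -3.77. Cdc6 on WT BAT replicate 2 read -2.14. Among the gWAT arrays labelled KO, replicate 1 read 1.95 for Mcm7 and replicate 4 read 0.12 for Cenpe.

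The genotype change differed between the depots, by the limma interaction term over 16 arrays, for 30 members with adjusted p between 0.000311 and 0.0396. The differences (gWAT change minus BAT change, log2) of 17 mitotic members were Cenpe -3.27, Cenpf -2.85, Mki67 -2.69, Top2a -2.65, Ccnb1 -2.49, Kif23 -2.44, Birc5 -2.36, Ccna2 -2.34, Plk1 -2.29, Ube2c -2.26, Prc1 -2.13, Nusap1 -1.92, Ccnb2 -1.91, Tpx2 -1.86, Cdc20 -1.86, Bub1b -1.58 and Aurka -1.20. In WT BAT, Cenpf, Kif23 and Tpx2 were well above background on 1 of 4 arrays, and Cenpe and Bub1b on 2. The sizes given for these members therefore rest in part on dim values. The fitted values of Cdk1 (-2.51) and Bub1 (-2.49) give no size, since neither was well above background on any WT BAT array and Bub1 was so on only 1 array of each gWAT group. Those of 10 S-phase members with a more positive change in BAT were Tk1 -2.52, Cdt1 -2.06, Rrm2 -2.04, Mcm2 -1.74, Mcm5 -1.72, Mcm6 -1.35, Mcm3 -1.06, Mcm4 -0.995, Mcm7 -0.76 and Tyms -0.55, and Cdc45 at 0.84 ran the other way. The sign of the gWAT changes rests on the labels of arrays in which Pgam1 was higher in the KO group. The causes of these differences were not tested.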

How the results depend on the processing

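Counts with the slide as a block are left out here, because that fit sets several arrays against 1 array of the other group. In BAT the count of members that rose was 32 to 34 under the other alternatives but the stricter filter, which tested 24 members and called 21. The 1 member that fell was lost with spike-in scaling (0). The BAT medians moved with spike-in scaling to 1.92 for S-phase members, and with normexp to 1.64 (75th percentile) and 1.77 (quantile) for mitotic members. In gWAT the count of 3 was 8 with quantile normalization, 9 with median centring and 12 with spike-in scaling. It was 6 and 8 with normexp (75th percentile and quantile) and 1 without a filter. The S-phase median was 0.94 with spike-in scaling. The interaction count of 29 was 18 with the stricter filter. The 1 member of the other direction was lost (0) with spike-in scaling, with normexp and quantile normalization, or with no filter. Between WT depots the count of 18 was 11 with the stricter filter and 11 by the methods' t-test. The count of 4 was 2 with quantile normalization, 2 with median centring, 1 with spike-in scaling and 2 without a filter. The causes of these moves were not tested, except that the stricter filter tests fewer genes.

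With each array left out in turn, BAT gave 32 to 34 higher and 1 to 1 lower, with medians of 1.30 to 1.44 (S-phase) and 2.78 to 3.29 (mitotic). gWAT gave 1 to 3 higher and 0 to 0 lower, with medians of 0.41 to 0.54 and 0.55 to 0.89. The interaction gave 26 to 30 more positive in BAT and 0 to 1 in gWAT, and the WT depots 10 to 25 higher and 2 to 3 lower. Of single members, the sign turned in BAT for Cdc6 (0.41 with spike-in scaling, 0.019 with normexp and quantile normalization, 0.18 with the mean of all probes), Ccne1 (-0.17 with the slide block) and Kif11 (-0.35 with normexp and the 75th percentile). In gWAT it turned for Mcm2 (-0.80) and Mcm4 (-0.12) with the slide block, for Mcm7 (0.17) and Cdc6 (0.0033) with spike-in scaling, and, with an array left out, for Mcm2 (-0.029 without WT replicate 2, up to 0.58 without WT replicate 4), Cdc45 (-0.037 without WT replicate 2, up to 0.27 without WT replicate 3), Plk1 (-0.046 without KO replicate 4, up to 0.52 without KO replicate 1) and Ube2c (-0.0023 without WT replicate 1, -0.11 without WT replicate 2 and -0.18 without KO replicate 4, up to 0.43 without WT replicate 3).

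Whether the replicate numbers pair the arrays could not be settled. Deviations of same-numbered arrays from their group means correlated at 0.0085, 0.086, 0.19 and 0.015 in BAT and -0.16, 0.55, -0.14 and -0.011 in gWAT. Between depots they correlated at 0.18, 0.12, 0.13 and -0.033 in WT and 0.12, 0.039, 0.26 and -0.13 in KO. Weak correlations do not exclude that the same mouse gave both arrays. With the replicate number as a block, 33 members rose and 1 fell in BAT, 0 were called in gWAT, 29 and 1 in the interaction, and 23 and 3 between the WT depots. Some but not all arrays correlated best with their own number, in BAT replicates 2 and 3, in gWAT replicate 2, between WT depots 1 and 2 and between KO depots 1 and 3. Dim probes limit the mitotic members most, since 11 of 23 were not well above background on all WT BAT arrays.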
